A study of Rattus norvegicus with 9 samples.

Results

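The mitochondrial ribosomal protein genes are the nuclear genes whose annotated symbol is Mrpl (large subunit) or Mrps (small subunit) followed by a number. In the array data, 73 genes met this rule, 46 of the large and 27 of the small subunit, among 14217 genes that had at least 1 probe set annotated with a single gene. Each gene was read from its brightest probe set (by the mean of the 9 arrays), and pseudogenes were left out. Pancreatic islets of Wistar rats were freed by collagenase digestion and their RNA was hybridised to Affymetrix rat expression arrays, 1 array per sample. Lean rats on standard chow gave 4 samples, and obese rats on a cafeteria diet rich in calories gave 5 samples. The time on the diet is listed as 30 days for both groups. The cafeteria diet is a choice of palatable, energy-dense human foods. The sources used here give neither age and sex nor any pooling of animals, so that the tests measure the spread between these 9 samples, which may in part be technical.

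Mitochondria carry their own ribosomes, which translate the few proteins encoded by mitochondrial DNA, all of them core parts of the respiratory chain and the ATP synthase. The ribosomal RNAs come from mitochondrial DNA, whereas every protein of the ribosome is encoded in the nucleus, made in the cytosol and imported. Part of these proteins descend from bacterial ribosomal proteins and part do not. In beta cells, the respiratory chain couples glucose breakdown to insulin release, because the ATP it drives closes potassium channels of the cell membrane.

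The values are log2 expression values per probe set, and every difference below is cafeteria minus chow on the log2 scale with the standard error (SE) of limma, a linear model that shares information on the spread across probe sets. A gene was called at an adjusted p under 0.05 after Benjamini-Hochberg adjustment over all 31042 probe sets tested. The arrays correlated with each other between 0.979 and 0.994. The measured beta cell markers had mean log2 values between 8.56 (Pdx1) and 14.19 (Ins2), and their mean over markers differed by -0.044 between the diets. All 73 members had mean values above the array medians, which lay between 5.28 and 5.32.

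The starting points of these genes show what several of them share apart from the name. A window from 250 bases before to 50 after the RefSeq start, on the rat build GRCr8, was at hand for 59 of the 73 members. Short motifs of factors known from promoters of nuclear genes for mitochondria were searched by exact letters on both strands. The YY1 motif AAGATGGC was in 14 of 59 member windows (23.7%) and in 3.62% of the 27457 genes with a window, although in 11 of the 14 it reached into the 50 transcribed bases. The ETS family motif ACTTCCGG was in 8 members (13.6%, against 4.20% of all genes), and the NRF1 core motif GCATGCGC was in 5 members (8.47%, against 2.77%). The full NRF1 motif, which is this core with GC before it and so overlaps it, was in 4 members (6.78%, against 0.954%). The E-box CACGTG (6 members, 10.2%, against 7.08%), the TATA box TATAAA (8 members, 13.6%, against 15.3%) and the CCAAT box, searched as CCAAT (27 members, 45.8%, against 39.6%) were nearer to their shares in all genes. A match is a description of letters and not evidence of a bound factor. All genes here are the 27457 with a window, not the 14217 read from the arrays. The median share of G and C bases was 56.0% in member windows and 52.3% in all, and the motif shares were not adjusted for it. The promoters of Mrpl32, Mrps18b, Mrpl22 and Mrpl44 are shown because they carry the NRF1 motif or its core and their values are described further on; the fifth such member is Mrpl17. The stretch between the starts of Mrpl46 and Mrps11 is shown because it lies upstream of a large and a small subunit gene at once. YY1 matches of Mrpl32, Mrps18b and Mrpl46 are not among the bases shown. Capitals mark matches to the motifs above, and each sequence ends 1 base before the start of the gene, or runs from 1 gene to the next.
Mrpl32 (chr17:55260442-55260650, plus strand, up to the divergent gene Psma2): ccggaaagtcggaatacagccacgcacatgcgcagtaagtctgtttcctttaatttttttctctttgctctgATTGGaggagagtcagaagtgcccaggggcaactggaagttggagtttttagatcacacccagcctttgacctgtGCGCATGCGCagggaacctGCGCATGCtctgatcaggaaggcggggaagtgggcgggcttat
Mrps18b (chr20:2842756-2843005, plus strand): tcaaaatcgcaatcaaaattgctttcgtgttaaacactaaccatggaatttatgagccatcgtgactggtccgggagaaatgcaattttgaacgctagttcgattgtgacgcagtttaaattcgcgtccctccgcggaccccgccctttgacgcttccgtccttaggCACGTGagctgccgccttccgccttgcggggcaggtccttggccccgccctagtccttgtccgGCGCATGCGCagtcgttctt
Mrpl22 (chr10:42845660-42845909, plus strand): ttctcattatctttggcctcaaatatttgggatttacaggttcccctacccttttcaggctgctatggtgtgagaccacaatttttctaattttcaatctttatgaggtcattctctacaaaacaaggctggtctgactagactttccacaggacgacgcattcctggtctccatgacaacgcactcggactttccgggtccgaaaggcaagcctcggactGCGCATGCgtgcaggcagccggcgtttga
Mrpl44 (chr9:88554800-88555049, plus strand): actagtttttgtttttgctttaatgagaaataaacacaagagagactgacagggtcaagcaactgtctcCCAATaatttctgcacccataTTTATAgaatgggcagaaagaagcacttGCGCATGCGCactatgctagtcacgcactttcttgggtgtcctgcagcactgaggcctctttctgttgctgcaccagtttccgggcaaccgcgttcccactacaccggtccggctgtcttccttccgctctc
Between Mrpl46 and Mrps11 (chr1:142117031-142117263, plus strand): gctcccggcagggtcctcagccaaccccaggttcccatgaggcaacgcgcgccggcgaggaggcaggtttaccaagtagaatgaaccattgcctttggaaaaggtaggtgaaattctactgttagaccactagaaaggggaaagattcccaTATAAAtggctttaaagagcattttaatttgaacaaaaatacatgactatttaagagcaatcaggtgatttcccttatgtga

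In Mrpl32 the full NRF1 motif and a further copy of its core lie in the stretch next to the gene, with a reversed CCAAT box farther out. Mrps18b has the NRF1 motif close to its start and an E-box farther out. In Mrpl22 the core stands near the start, reversed. Mrpl44 has the NRF1 motif farther from its start than these, with a reversed TATA box and a CCAAT box beyond it. The differences between the diets were 0.15 for Mrpl32, Mrps18b and Mrpl22, 0.13 for Mrpl17 and -0.084 for Mrpl44. Of the 5 members with the core 4 were higher (median 0.15), and of the 54 without it 38 (median 0.033). For the ETS family motif the order was reversed, with medians of 0.015 with it and 0.053 without it. For the TATA box it was reversed too (0.0049 with it and 0.059 without it). The YY1 motif (0.061 and 0.032), the CCAAT box (0.059 and 0.017) and the E-box (0.070 and 0.032) had the higher median with the motif. Whether the difference goes with a motif was not tested. Head-to-head starts were common among the members: for 18 of 59 (30.5%) another gene began on the opposite strand within 1000 bases, against 11.3% of all genes with a window. For Mrpl46 and Mrps11, which face each other at 234 bases, the marked match is a TATA box. Neither gene passed the test between the diets. Mrpl46 had log2 values of 7.14, 7.04, 6.93 and 6.87 in chow replicates 1 to 4 and 7.17, 6.91, 7.05, 6.98 and 7.03 in cafeteria replicates 1 to 5, a difference of 0.034 (SE 0.081). Mrps11, whose protein lies in the small subunit, had 8.04, 8.10, 7.88 and 7.81 in chow and 7.99, 7.98, 7.83, 7.96 and 7.97 in cafeteria islets, a difference of -0.0087 (SE 0.079). In both genes the groups overlapped.

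Between the diets, no member of either subunit passed the test. By limma, 0 of 73 members had an adjusted p under 0.05, as did 0% of the 31042 probe sets, and the smallest adjusted p of a member was 0.844. On the probe set used for each gene, the differences ran from -0.23 for Mrpl34 to 0.31 for Mrps18c. On these probe sets the 95% interval lay inside a change of 1.5-fold in either direction for 72 of the 73 members. The exception was Mrpl34, with an interval from -0.60 to 0.14. A second, dimmer probe set of Mrpl50 differed by 0.50 (SE 0.12). At an unadjusted p under 0.05 there were 5 members, all higher in cafeteria islets (6.85% of members), where 3.42% of all genes were higher and 3.28% lower at that level (6.70% in either direction). That count was 12 without chow replicate 1, when the share of all genes was 10.4%, and 13 with RNA quality as a covariate, when it was 13.5%. It was 9 with array weights (9.84% of all genes) and 3 in a fit to the brighter probe sets alone (6.14%). It was also 3 without chow replicate 3 (4.39% of all genes), chow replicate 4 (6.10%) or cafeteria replicate 4 (4.61%).

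**Figure D1:**
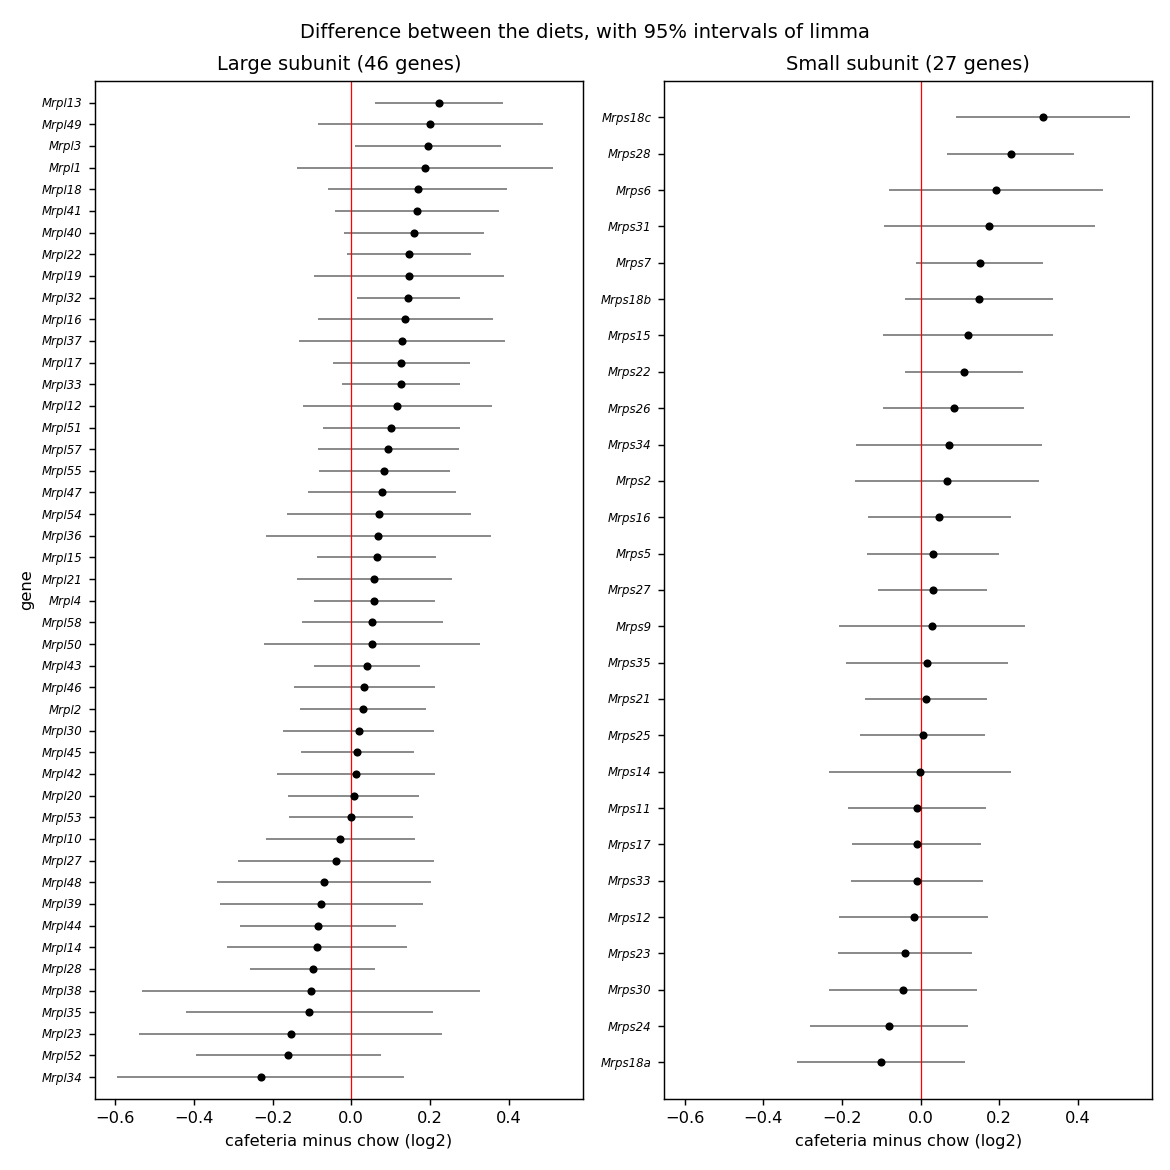
Difference between cafeteria and chow islets on the log2 scale (x axis) for each gene (y axis), with 95% intervals of limma as bars, for the 46 large subunit genes (left) and the 27 small subunit genes (right). The points run from -0.23 (Mrpl34) to 0.31 (Mrps18c), with 34 of 46 and 18 of 27 to the right of 0.

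More members lay above 0 than below it in both subunits. In the large subunit 34 of 46 genes were higher in cafeteria islets, with a median difference of 0.059, and in the small subunit 18 of 27, with a median of 0.030. Over all genes 50.8% were higher and the median difference was 0.0025. The middle 50% of the large subunit genes lay between -0.021 and 0.13, and that of the small subunit genes between -0.0090 and 0.12, against -0.087 to 0.082 for all genes. Neither median was tested. The medians were positive in all 18 other settings run. They fell to 0.038 (large) and 0.020 (small) without cafeteria replicate 5, and the small subunit median was 0.016 with the most variable probe set of each gene and 0.050 after a further quantile normalization. With Mrps30 and Mrps18a, whose proteins lie in the large subunit in known structures, moved there, the medians were 0.056 and 0.032.

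**Figure D2:**
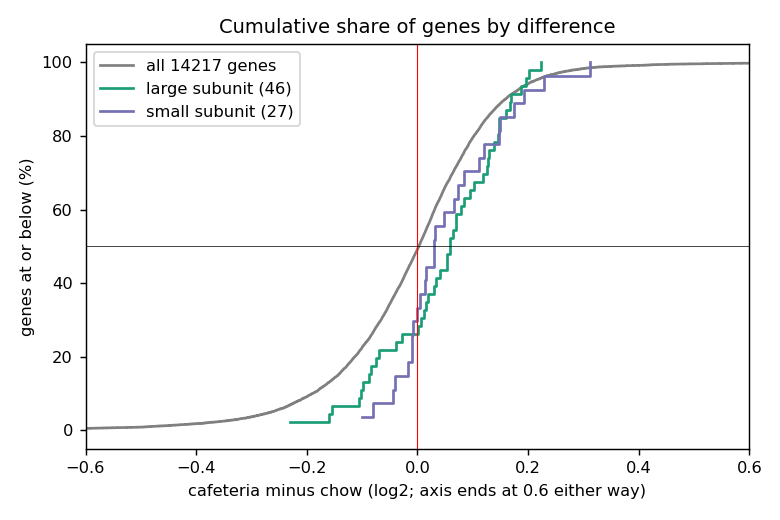
Cumulative share of genes (y axis, percent) at or below a given cafeteria minus chow difference (x axis, log2; the axis ends at 0.6 either way) for all 14217 genes, the 46 large and the 27 small subunit genes. The median lines cross at 0.059 for the large and 0.030 for the small subunit genes, against 0.0025 for all genes.

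The large subunit holds the catalytic centre that joins amino acids and the tunnel through which the new chain leaves. Mrpl13, which descends from a bacterial protein, had log2 values of 8.35, 8.09, 8.07 and 8.20 in chow and 8.39, 8.38, 8.38, 8.46 and 8.39 in cafeteria replicates. The groups did not overlap, but chow replicate 1 stood close to the cafeteria samples, and the difference was 0.22 (SE 0.07, adjusted p = 0.844 by limma). Mrpl32, whose protein is cut to its mature form by the m-AAA protease of the inner membrane, had 8.16, 8.16, 8.12 and 8.08 in chow and 8.25, 8.23, 8.30, 8.32 and 8.28 in cafeteria replicates. It was the steadiest of all members, with a within-group SD of 0.039, and its groups were separate in all samples, with a difference of 0.15 (SE 0.06). Mrpl3, which reaches towards the catalytic centre, had 8.67, 8.39, 8.35 and 8.43 in chow and 8.59, 8.62, 8.80, 8.64 and 8.61 in cafeteria replicates. Here chow replicate 1 was higher than every cafeteria sample but replicate 3, and the difference was 0.20 (SE 0.08). The same order was seen in Mrpl22, which lines the exit tunnel, with 7.61, 7.44, 7.46 and 7.35 in chow and 7.59, 7.59, 7.71, 7.59 and 7.56 in cafeteria replicates and a difference of 0.15 (SE 0.07).

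**Figure D3:**
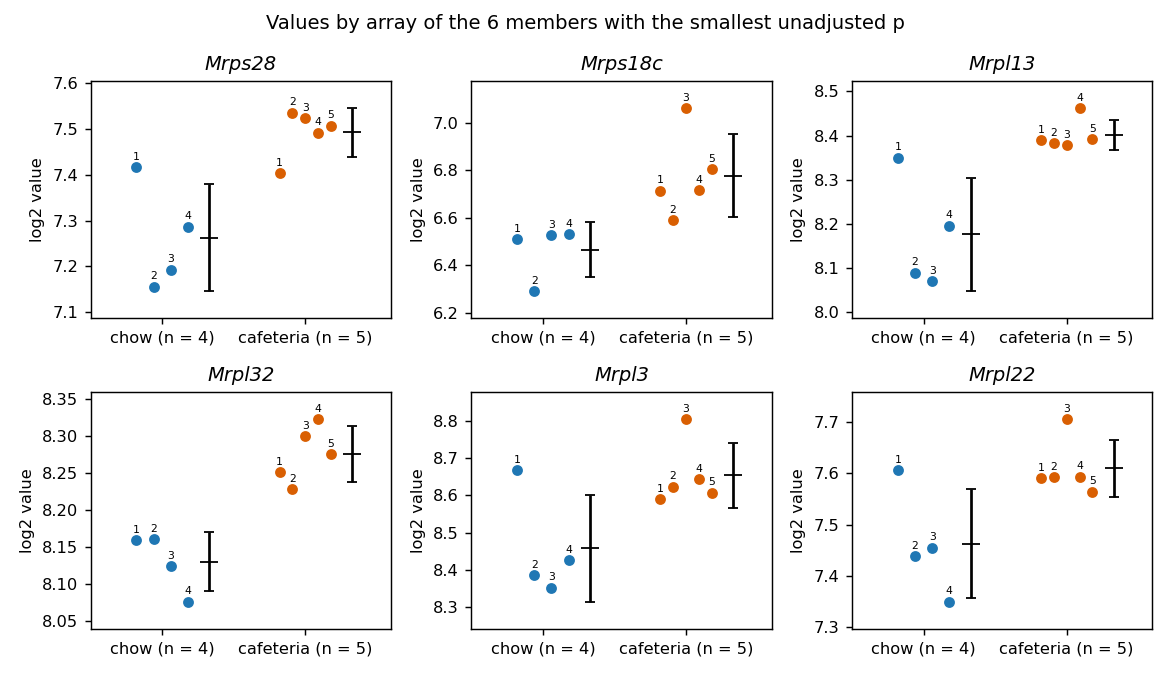
Log2 values (y axis) of the 6 members with the smallest unadjusted p in the chow and cafeteria samples (x axis). Points are single arrays numbered by replicate, and the black marks beside them are the mean ± SD (n = 4 and 5). In Mrpl13, Mrpl32 and Mrps18c the groups do not overlap, whereas in Mrps28, Mrpl3 and Mrpl22 chow replicate 1 lies among the cafeteria samples.

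Groups that do not overlap, all higher in cafeteria islets, were seen in 3 members, Mrpl13, Mrpl32 and Mrps18c (4.11% of members, against 1.33% of all genes in that direction). In the other direction there were 0 members, against 0.837% of all genes (2.17% in either direction). The next large subunit genes by the size of their p were Mrpl40 (0.16, SE 0.08), a protein of the central protuberance, and Mrpl33 (0.13, SE 0.07), of bacterial descent, and in both the groups overlapped. Mrpl40 differed by 0.0996 with the mean over its probe sets. Neighbours in the structure of the large subunit had differences of both signs. Of the 8 genes of the central protuberance, the crown where the large subunit meets the small one, 5 were higher and the differences ran from -0.10 to 0.17. At the rim of the exit tunnel 4 of 5 were higher, from -0.15 (Mrpl23) to 0.15 (Mrpl22).

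Single large subunit genes whose proteins have a known role had differences of both signs. In the stalk that recruits translation factors, Mrpl12 had 8.76, 8.52, 8.34 and 8.28 in chow and 8.51, 8.50, 8.69, 8.50 and 8.77 in cafeteria replicates, and differed by 0.12 (SE 0.11). That value was 0.21 without chow replicate 1, between 0.051 and 0.074 without chow replicate 4, chow replicate 3 or cafeteria replicate 5, and 0.23 with its most variable probe set. Its partner Mrpl10 differed by -0.028 (SE 0.086), and by 0.0025 without chow replicate 2. Mrpl45, which holds the ribosome at the inner membrane, differed by 0.016 (SE 0.065), with a 95% interval from -0.13 to 0.16. Mrpl58, a peptidyl-tRNA hydrolase that rescues stalled ribosomes, differed by 0.054 (SE 0.081), and Mrpl44, which has a fold of RNA-cutting enzymes, by -0.084 (SE 0.089), or -0.15 without cafeteria replicate 1. With all samples in the fit, none of these intervals excluded 0. Without cafeteria replicate 1, Mrpl44 had an unadjusted p of 0.049 by limma (adjusted p = 0.562). The differences of Mrpl10, Mrpl45 and Mrpl58 changed sign with single samples left out.

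The small subunit binds the messenger RNA and reads its codons. Mrps28 had 7.42, 7.16, 7.19 and 7.29 in chow and 7.40, 7.54, 7.52, 7.49 and 7.51 in cafeteria replicates, so that chow replicate 1 was just above cafeteria replicate 1 and the other samples of the groups were apart. The difference was 0.23 (SE 0.07, adjusted p = 0.844 by limma). Mrps18c had 6.51, 6.29, 6.53 and 6.53 in chow and 6.71, 6.59, 7.06, 6.72 and 6.80 in cafeteria replicates. On the probe sets used, it had the largest difference of all members, 0.31 (SE 0.10), which was 0.24 without cafeteria replicate 3, its highest sample. Its other 2 probe sets were dimmer, with mean log2 values of 5.83 and 3.45, the latter below the array medians. They differed by -0.063 (SE 0.15) and -0.012 (SE 0.07), so that the difference stands on 1 of 3 probe sets. It was 0.078 with the mean of all 3.

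Mrps18a, Mrps18b and Mrps18c are 3 related genes of the S18 family, and their values did not run alike. Beside Mrps18c, Mrps18b had 8.34, 8.36, 8.29 and 8.31 in chow and 8.51, 8.52, 8.22, 8.48 and 8.63 in cafeteria replicates, where replicate 3 was the lowest of all 9 samples and the other cafeteria samples were above all chow samples. Its difference was 0.15 (SE 0.08), and 0.21 without cafeteria replicate 3. Mrps18a had 8.15, 8.12, 8.11 and 7.99 in chow and 8.22, 7.92, 7.76, 7.95 and 8.12 in cafeteria replicates, a difference of -0.10 (SE 0.10), which was -0.042 without cafeteria replicate 3 and -0.16 without cafeteria replicate 1. Cafeteria replicate 3 was thus the highest sample for Mrps18c and the lowest for both relatives.

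In the head of the small subunit Mrps7 had 8.32, 8.25, 8.07 and 8.06 in chow and 8.33, 8.34, 8.29, 8.35 and 8.31 in cafeteria replicates. The cafeteria samples lay closely together (SD 0.024, n = 5), the chow samples did not (SD 0.13, n = 4), and the difference was 0.15 (SE 0.07). Of the 7 measured head genes 4 were higher, from -0.080 to 0.17. Mrps6 differed by 0.19 (SE 0.12), and by 0.33 without chow replicate 1, whose value of 6.92 was the highest of all samples. Mrps22, found only in mitochondria, differed by 0.11 (SE 0.07). With its most variable probe set, whose mean log2 value of 3.93 lay below the array medians, it differed by 0.038. Mrps12, at the decoding centre, differed by -0.018 (SE 0.085), Mrps5 by 0.032 (SE 0.076), Mrps16 by 0.048 (SE 0.082), Mrps27, which has RNA-binding repeats, by 0.030 (SE 0.063), and Mrps30 by -0.044 (SE 0.085). Of these only Mrps16 kept its sign in all settings, with values from 0.024 without cafeteria replicate 4 to 0.11 without cafeteria replicate 3.

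Members of bacterial descent were set beside the other members, which were counted as without a counterpart among bacterial ribosomal proteins. In the large subunit 20 of 27 genes of bacterial descent were higher, with a median of 0.069, and 14 of 19 of the others, with a median of 0.040. In the small subunit the counts were 11 of 17 (median 0.032) and 7 of 10 (median 0.023). All 5 members at an unadjusted p under 0.05 (Mrps28, Mrps18c, Mrpl13, Mrpl32 and Mrpl3) were of bacterial descent. The difference between the classes was not tested.

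Several probe sets were on the array for 18 of the 73 genes, 24 probe sets beside those used. Of these 24, 8 had the opposite sign to the probe set used, in 7 genes (Mrpl57, Mrps2, Mrps9, Mrps14, Mrps18c, Mrps24 and Mrps27). Among these 8, 1 probe set each of Mrps18c (mean log2 value 3.45), Mrps24 (4.66) and Mrps27 (5.10) lay below the array medians. The second probe set of Mrpl50 differed by 0.50 (SE 0.12), the largest difference of any member probe set (unadjusted p = 0.0017, adjusted p = 0.844 by limma). The brighter one differed by 0.053 (SE 0.12). All 4 probe sets of Mrpl51 were higher, by 0.10 (SE 0.08) for the one used and by 0.28 (SE 0.10) for the dimmest. Pseudogenes are listed by RefSeq for 21 of the members, up to 9 for Mrpl30, and whether a probe set also binds their transcripts cannot be told here.

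Across single arrays, the subunits moved together by small amounts. The mean over the 46 large subunit genes, as the difference from the 9-array mean, was 0.037, 0.013, -0.073 and -0.078 in chow replicates 1 to 4 and 0.059, 0.010, -0.034, 0.013 and 0.054 in cafeteria replicates 1 to 5. The mean over the 27 small subunit genes was 0.027, -0.028, -0.061 and -0.063 in chow and 0.041, 0.0037, -0.0011, 0.012 and 0.070 in cafeteria replicates. Chow replicates 3 and 4 were the lowest for both subunits, chow replicate 1 lay within the range of the cafeteria samples, and the groups overlapped. As the mean over all members the groups stood at -0.028 ± 0.052 (SD, n = 4) and 0.022 ± 0.034 (SD, n = 5).

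**Figure D4:**
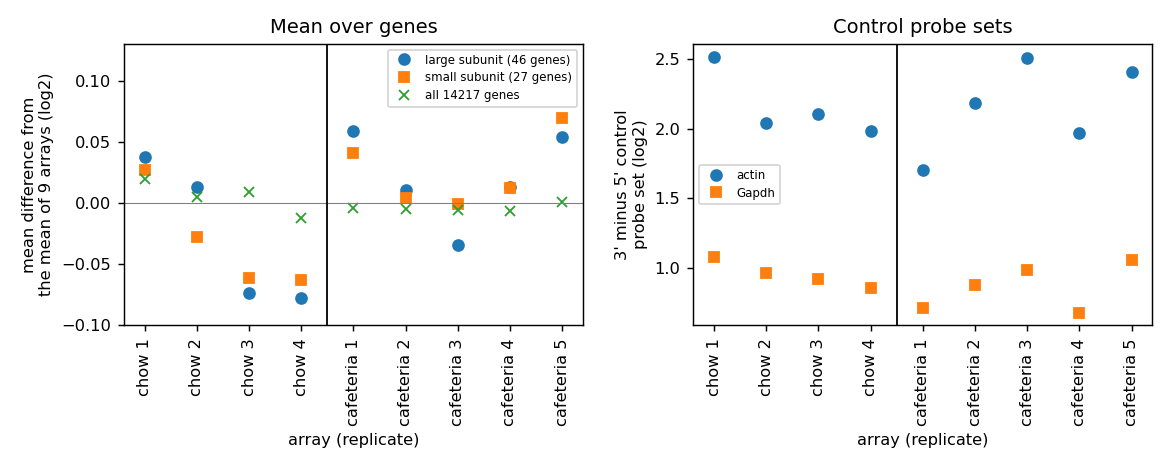
Left, mean difference from the 9-array mean (y axis, log2) over the large subunit, small subunit and all genes in each array (x axis, with chow left of the line and cafeteria right of it). Right, the 3' minus 5' difference of actin and of Gapdh control probe sets (y axis, log2) in the same arrays. Chow replicates 3 and 4 have the lowest member means, and chow replicate 1 and cafeteria replicates 3 and 5 the largest actin differences.

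Cafeteria replicate 3 had the widest spread of member deviations (SD 0.23 over members, against 0.083 to 0.15 in the other arrays), as it had over all genes (0.25, against 0.14 to 0.23). In it 18 members lay above and 30 below all 4 other cafeteria samples, 65.8% of members in all, against 53.6% of all genes. Chow replicate 1 lay outside the other chow samples for 67.1% of members, against 61.7% of all genes. These shares are not comparable with those of cafeteria replicate 3, because a chow sample was set against fewer others. Mrpl23, which sits at the exit tunnel, had 7.65 in cafeteria replicate 3. It had 8.63, 8.42, 8.34 and 8.23 in cafeteria replicates 1, 2, 4 and 5, with 8.18 to 8.60 in chow. Mrpl34 had 6.77 against 7.20 to 7.67 in the other cafeteria samples, Mrpl35 had 6.73 against 7.19 to 7.55, and Mrpl27 had 8.51 against 8.99 to 9.08. Mrpl1, which forms a mobile side stalk of the large subunit, had 8.83 in the same sample against 8.26 to 8.68, and Mrpl18 had 8.40 against 8.00 to 8.17. Of all 9 arrays it held the lowest value for 19 members (18.8% of all genes) and the highest for 11 (19.8% of all genes). Without this sample 57 of 73 members were higher in cafeteria islets, in place of 52.

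**Figure D5:**
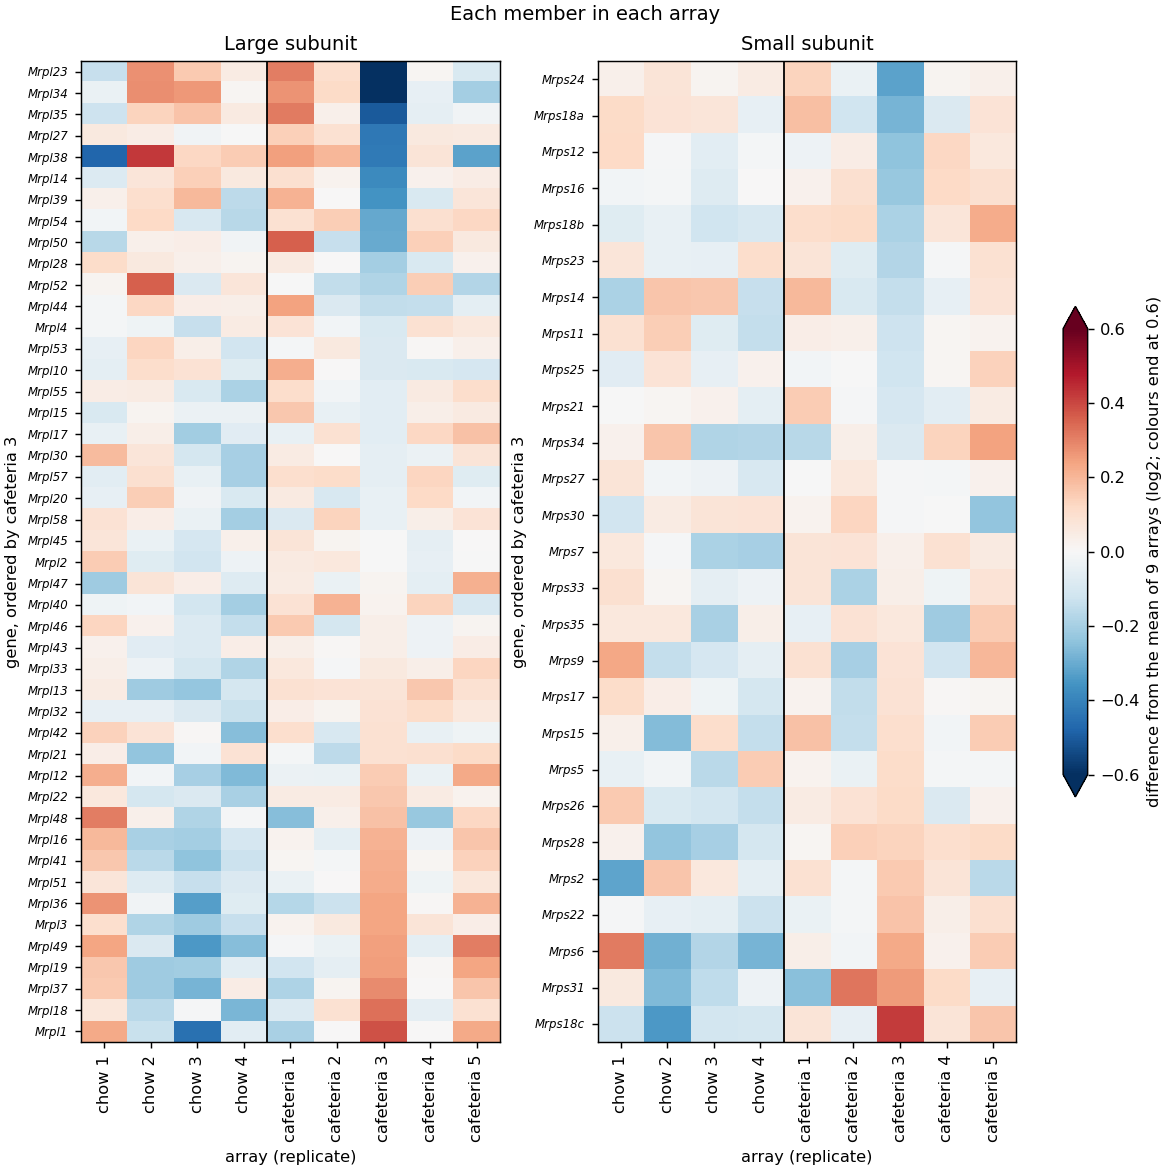
Each member (rows) in each array (columns, chow left of the line), coloured by its difference from the mean of the 9 arrays on the log2 scale (colours end at 0.6). Genes are ordered by cafeteria replicate 3, in which 19 of the 73 members had their lowest and 11 their highest value of all arrays.

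The control probe sets for RNA quality also varied between the arrays. The log2 difference between the 3' and the 5' control probe set, averaged over actin and Gapdh, grows as RNA is broken or copied less fully. It ran from 1.42 to 1.80 in chow and from 1.21 to 1.74 in cafeteria replicates. The groups overlapped (difference -0.052, two-sided exact permutation p = 0.746 over 126 splits). Cafeteria replicate 1 had the smallest value (1.21) and the highest large subunit mean (0.059). Chow replicate 1 (1.80) and cafeteria replicate 5 (1.73) had large subunit means of 0.037 and 0.054, but cafeteria replicate 3 (1.74) had -0.034. In 11 of 73 members (15.1%) the 3 highest arrays were those with the 3 largest values of this measure, chow replicate 1 and cafeteria replicates 3 and 5, against 8.00% of all genes. Of these 11, 10 were large subunit genes (Mrpl1, Mrpl12, Mrpl16, Mrpl19, Mrpl36, Mrpl37, Mrpl41, Mrpl48, Mrpl49 and Mrpl51) and the other was Mrps6. In 3 members (Mrpl23, Mrpl38 and Mrps30) the same arrays were the 3 lowest, 4.11% against 7.08% of all genes. Mrpl38, for example, had 6.15 in chow replicate 1 and 6.20 and 6.30 in cafeteria replicates 3 and 5, and 6.70 to 7.05 elsewhere. Beyond the fit with this measure as a covariate, in which 50 of 73 members were higher and 0 were called, its part in the members' values was not tested.

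Within the groups, correlations between members were mostly weak. After each group's mean was taken off, the median correlation over the 9 arrays between pairs of large subunit genes was 0.17, between small subunit genes 0.062 and between the subunits 0.13, against 0.0044 between all pairs of genes. Correlations over 0.5 made up 25.2% of the large subunit pairs and 14.21% of all pairs, and those under -0.5 made up 12.3% and 13.8%. All pairs share the same 9 arrays and their RNA quality, so these are descriptions of these samples. The median within-group SD of a member was 0.12, against 0.15 for all genes.

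Markers of other cell types varied between the samples. Acinar markers were higher in cafeteria islets in 15 of 16 genes, with mean deviations from -0.80 to 0.18 in chow and from -1.10 to 0.76 in cafeteria samples. Chow replicates 3 and 4, with the lowest member means, were low for acinar markers too (-0.65 and -0.80), but cafeteria replicate 5, which had the lowest acinar value (-1.10), had high member means. Immune markers were lower in 13 of 13 genes. Their mean deviation was 1.19 in chow replicate 3, but 0.12, 0.15 and -0.087 in chow replicates 1, 2 and 4. Cafeteria samples ran from -0.37 to -0.068, so that the groups overlapped. Endothelial markers were lower in 7 of 7 genes (median -0.16) and markers of other islet endocrine cells in 7 of 7 (median -0.22), with overlapping groups for both. Ductal markers were lower in 5 of 8 genes. Their mean deviation was 0.81 in chow replicate 1, and in the other samples from -0.37 (chow replicate 3) to 0.18 (chow replicate 2). Stellate markers were lower in 4 of 7 genes, with mean deviations from -0.60 to 0.36, both in cafeteria samples. In whole islets fewer cells of a type and less RNA per cell cannot be told apart, and the part of these cells in the members' values was not tested.

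In the rest of the mitochondrial translation apparatus no gene passed the test either. Of 53 measured genes in 4 lists 37 were higher, with a median of 0.068, and 0 were called. An unadjusted p under 0.05 was found for 5 (9.43%), all higher, against 6.70% of all genes in either direction and 3.42% higher. Translation factors were higher in 9 of 10 genes (median 0.10), led by the elongation factor Gfm1 (0.20, SE 0.09), the release factor Mtrf1 (0.19, SE 0.10) and the recycling factor Mrrf (0.15, SE 0.09). Mtrf1 differed by 0.12 without cafeteria replicate 3, and Mrrf by 0.080 without chow replicate 2 and by 0.043 with the mean over its probe sets. Genes that assemble the ribosome or modify its RNA were higher in 18 of 25 (median 0.078). Among them the rRNA methyltransferase Mrm3 differed by 0.35 (SE 0.11), but by 0.19 with the mean over its probe sets. Its log2 values were low, with means of 4.97 in chow and 5.31 in cafeteria islets, and it was not among the brighter probe sets. Mterf4, which brings a methyltransferase to the ribosome, had 7.02, 6.80, 6.86 and 7.03 in chow and 7.12, 7.19, 7.07, 7.13 and 7.28 in cafeteria replicates, a difference of 0.23 (SE 0.08). Tfb1m, which methylates the small subunit RNA, had 6.49, 6.36, 6.41 and 6.43 in chow and 6.51, 6.59, 6.77, 6.65 and 6.58 in cafeteria replicates, a difference of 0.20 (SE 0.07). In Mterf4 and Tfb1m the groups did not overlap (3.77% of the 53 genes, against 1.33% of all genes in that direction).

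Ribosomal proteins with other names went both ways. Aurkaip1, of the small subunit, differed by 0.19 (SE 0.07), Chchd1, also of the small subunit, by 0.091 (SE 0.072; 0.056 without chow replicate 3 and 0.057 without cafeteria replicate 5), and Gadd45gip1, of the large subunit, by -0.17 (SE 0.10); 3 of 5 were higher. Mitochondrial aminoacyl-tRNA synthetases, which charge the transfer RNAs, were higher in 7 of 13 genes with a median of 0.012. Wars2 differed by 0.22 (SE 0.10), Rars2 by 0.18 (SE 0.11) and Vars2 by -0.37 (SE 0.21). Wars2 differed by 0.023 with the mean over its probe sets and its sign turned with the most variable one (-0.17). Rars2 differed by 0.11 without cafeteria replicate 3 and Vars2 by -0.23 without chow replicate 2.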

How the data were processed

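Expression was measured on 9 arrays, 4 of chow-fed and 5 of cafeteria-fed rats. The deposited values are on the log2 scale. The tools listed in the submitters' processing notes are affy 2.0.1, R 2.7.0 and RMA, with no order given. RMA equalises the arrays, so that a shift shared by most genes is removed, and its values carry no detection call. Of 31099 probe sets 57 controls were left out. The platform annotation gave 20826 probe sets a single gene, 436 several and 9780 none.

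The members and lists were chosen with earlier results of these data known. limma 3.58.1 (R 4.3.3; lmFit and eBayes) was fitted to all 31042 probe sets without covariates. Named genes are the 6 members of each subunit with the smallest unadjusted p, a fixed list of members with known roles, and 3 genes of each further list; others were named after their values were seen. Groups are medians and counts without tests. The fit was tested on simulated data. Python 3.11.15, scipy 1.17.1 and matplotlib 3.10.9 did the rest. Sequences are from RefSeq (GRCr8), matched by gene identifier. Depth does not apply to arrays: their number limits the precision. Alternatives covered scaling, dim probe sets, variance model, array weights, RNA quality, probe set choice, threshold, subunit by location and each sample left out.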

Additional observations from a re-analysis of the deposited data

Results flagged for a closer look

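In 7 of the 74 groups of samples behind the 35 named genes and the mean of each subunit, 1 sample stood far from the rest of its group, with a gap to its nearest neighbour above Dixon's 95% critical value for the group's range. Chance alone marks about 5% of groups. Cafeteria replicate 3 was the highest of its group for Mrpl3 (8.80, next 8.64) and Mrpl22 (7.71, next 7.59) and the lowest for Mrps16 (8.68, next 8.94). Cafeteria replicate 4 was the highest for Mrpl13 (8.46, next 8.39), and cafeteria replicate 1 the highest for Mrpl44 (6.94, next 6.64). Among the chow samples, replicate 2 was the lowest for Mrps18c (6.29, next 6.51) and replicate 1 the lowest for Mrps30 (7.43, next 7.60). Over all 73 members 13 of 146 groups held such a sample, and in 7 of the 13 it was cafeteria replicate 3.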

How the results depend on the processing

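No member and no probe set was called in any setting, and the lowest adjusted p of a named gene by limma over all settings was 0.346. The count of members at an unadjusted p under 0.05 (5) was 3 with the brighter probe sets, 9 with array weights, 13 with RNA quality as a covariate, and 3 to 12 with single samples left out (12 without chow replicate 1). The share of all genes at that level (6.70%) moved as well. It was 6.14%, 9.84% and 13.5% in the settings named before the left-out samples, in their order, and 10.4% without chow replicate 1. The count of members higher in cafeteria islets (52) ran from 45 to 57, and the share of all genes higher (50.8%) from 48.5% to 53.6%. That share was 49.6% where 45 members were higher (without chow replicate 4) and 49.8% where 57 were (without cafeteria replicate 3). Of 35 named genes 26 kept their sign in all settings. With other settings the sign turned for Mrps12 (0.0010 after repeated quantile normalization, 0.045 with array weights), Mrps27 (-0.0060 with the mean over probe sets, -0.097 with the most variable probe set), Mrps18c (-0.063) and Wars2 (-0.17), the last pair also with the most variable probe set. With single samples left out, the difference ran from -0.085 to 0.0025 for Mrpl10, from -0.015 to 0.043 for Mrpl45, from -0.0046 to 0.093 for Mrpl58, from -0.016 to 0.087 for Mrps5, from -0.050 to 0.041 for Mrps12 and from -0.090 to 0.010 for Mrps30. The RNA quality difference (-0.052 with all samples) ran from -0.11 to 0.028 with single samples left out; this alternative was chosen after seeing the data. The cause of these turns was not tested. No paired analysis was possible because the labels give the samples letters that no 2 samples share. Signal over background is not known from these values.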
